A study of Mus musculus with 24 samples.

Results

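The regions described here are stretches of protein-coding genes whose m6A peak was present in oocytes at the germinal vesicle (GV) stage, absent from mature oocytes and zygotes, and present again in later embryos. They were chosen from the peak lists themselves. Peak intervals of all 12 antibody libraries were pooled and overlapping ones were merged into 31376 regions, of which 22498 had their midpoint in a protein-coding gene. A region was kept if it held a peak in both GV oocyte lists, in at least 3 of the 4 8-cell and blastocyst lists, and in none of the 4 lists of metaphase II (MII) oocytes and zygotes. This left 560 regions, 2.49% of the genic regions, in 560 genes. They are called lost and regained below, which describes peaks in lists and not a tested change. The 2-cell lists played no part in the choice.

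The libraries came from C57BL/6N mice: females of 8 weeks were given 5 U of pregnant mare serum gonadotropin, and, for all stages after GV, 5 U of human chorionic gonadotropin (hCG). GV oocytes were limited to the surrounded-nucleolus type, picked by their perivitelline space, were kept from maturing with 0.2 mM IBMX, and were pooled as 49 cells. MII oocytes were collected 14 h after hCG in pools of 100 or 110. Females mated with males of the same age gave zygotes at 27 to 28 h, 2-cell embryos at 39 to 43 h, 8-cell embryos at 68 to 70 h and blastocysts at 92 to 94 h, all in pools of 100 except 1 8-cell pool of 51. There was no genetic or drug comparison. The design text of the series calls the 2 replicates of a stage biological. Each had an input library, used in the authors' peak calling and not analysed here. Blastocysts hold several cell types, so fewer cells of a type and less RNA per cell cannot be told apart in these bulk pools. Peaks do not measure expression. Of 25 oocyte genes listed as a check, 10 had a region with a peak in both GV lists, as did 3 of 20 cumulus and granulosa cell markers. Over all 21883 protein-coding genes 4478 had such a region, and the counts of these short lists were not tested against it.

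N6-methyladenosine is placed on adenosines of nascent messenger RNA by a writer complex around METTL3 and METTL14, with WTAP, VIRMA, ZC3H13 and RBM15-type adaptors. It is read by YTH domain proteins, some of which speed the decay of the RNA. Fully grown oocytes are transcriptionally silent and live from stored RNA, part of which is deadenylated and degraded during maturation. New transcripts come with activation of the embryonic genome, in the mouse mainly at the 2-cell stage. The mark is known to be enriched near stop codons and in the last exon.

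The 12 lists held 6914 to 11959 peaks each. The value given for a peak is the authors' fold enrichment of antibody-bound over input RNA at the summit. Median folds differ between lists (4.80 and 4.59 in GV oocytes, 6.12 and 5.68 in 8-cell embryos, 6.01 and 6.79 in blastocysts). Folds are therefore given as measured, and readings across lists rest on the percentile of a fold among the peaks of its own list, where 100 is the highest. Read depth is unknown, and a region without a peak may lie below the limit of peak calling, so absence from a list does not separate RNA level from methylation. No test was run on the chosen regions, because their presence and absence made the choice and because each stage has only 2 lists.

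No genome sequence was used, so the sequence of most regions cannot be shown. Only 2 of the 560 regions overlapped the RefSeq promoter window (250 bases before to 50 after the start) of their own gene, those of Cldn4 and Exosc6. Their windows are printed on the gene's strand from RefSeq (GRCm38.p6), with the bases inside the merged region in capitals.
Cldn4: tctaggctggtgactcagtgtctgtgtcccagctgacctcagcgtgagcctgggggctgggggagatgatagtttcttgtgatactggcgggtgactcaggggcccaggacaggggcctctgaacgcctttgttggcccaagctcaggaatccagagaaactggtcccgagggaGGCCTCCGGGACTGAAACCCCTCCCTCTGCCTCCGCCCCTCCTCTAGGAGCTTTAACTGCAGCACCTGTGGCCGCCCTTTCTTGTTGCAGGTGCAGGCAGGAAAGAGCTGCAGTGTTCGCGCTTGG
Exosc6: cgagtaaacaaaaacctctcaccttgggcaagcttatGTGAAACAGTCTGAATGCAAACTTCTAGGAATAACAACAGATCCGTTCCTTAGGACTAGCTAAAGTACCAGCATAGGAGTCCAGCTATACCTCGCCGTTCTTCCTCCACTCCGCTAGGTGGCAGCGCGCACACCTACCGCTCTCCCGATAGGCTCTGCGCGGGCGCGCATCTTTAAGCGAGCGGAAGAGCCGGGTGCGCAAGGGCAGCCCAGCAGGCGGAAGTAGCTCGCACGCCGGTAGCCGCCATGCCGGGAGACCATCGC
The Cldn4 window lies at chr5:134946885-134947184 on the minus strand and that of Exosc6 at chr8:111056089-111056388 on the plus strand. Cldn4 encodes a claudin, a strand protein of tight junctions, and was named after its values were seen. Its peaks covered 77 and 81 bases of the window in GV oocytes, 126 and 125 in 8-cell embryos, 126 and 122 in blastocysts, and 0 in both 2-cell lists. The fold of the Cldn4 region was 5.78 and 3.03 in GV oocytes, 7.76 and 8.19 in 8-cell embryos, and 5.99 and 10.2 in blastocysts. In Exosc6, a subunit of the RNA exosome, only the peak of 8-cell replicate 1 reached into the window, over 263 bases, and the GV peaks lay further into the gene. The letters GGAC, the start of a common m6A sequence context, occurred once in the capitals of each on the gene's strand, 68 bases before the start in Cldn4 and 161 before it in Exosc6. Both sites lie outside an RNA that begins at the annotated start. Of 32851 whole mouse promoter windows, 65.6% held GGAC on the gene's strand and 87.7% on either strand, so a match in a whole window is common. The capitals are shorter than a window, and no share was computed for their length.

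Another region, in Rab35 (a small GTPase of endosome recycling, also named after its values were seen), at chr5:115645489-115646001, overlapped the hairpin of miR-7030 at chr5:115645573-115645632 on the plus strand. The mature sequences follow, with the seed (bases 2 to 8) in capitals.
mmu-miR-7030-5p: uGGGGAGGuggcugugcuaguc
mmu-miR-7030-3p: cUUGCUCUguuaucucuccag
Rab35 was among the weaker members, with a fold of 2.04 and 3.12 in GV oocytes, 2.07 in 2-cell replicate 2 with no peak in replicate 1, 4.09 and 3.11 in 8-cell embryos, and 5.69 in blastocyst replicate 1 with no peak in replicate 2. The overlap is one of position, and the peak values do not separate host transcript from miRNA hairpin.

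Loss from both MII and zygote lists was seen at 1642 genic regions with peaks in both GV lists, 7.30% of all genic regions, and the later lists divided them. No 8-cell or blastocyst list held a peak at 731 of them, 1 list did at 176, 2 lists at 175, 3 at 202 and 4 at 358. The last 2 groups are the 560 members, 34.1% of the 1642. The number moves with the lists and the rule. It was 347 with the same number of peaks taken from each list and 358 when all 4 later lists were required. Without blastocyst replicate 1 it was 368, where a peak in all 3 remaining later lists was required. Just inside the threshold, the 202 members with 3 later lists had a median fold percentile of 26.8 in GV oocytes and 50.3 in the later lists, and just outside it the 175 regions with 2 later lists had 28.2 and 47.5. In the 202, the missing list was blastocyst replicate 2, the shortest of the later lists, in 127 cases, 8-cell replicate 1 in 42, 8-cell replicate 2 in 22 and blastocyst replicate 1 in 11. On the other side of the rule, 252 regions had the same pattern but for a peak in 1 of the MII or zygote lists, most often MII oocyte replicate 1 (136 regions, median fold 3.51, median percentile 25.7).

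**Figure D1:**
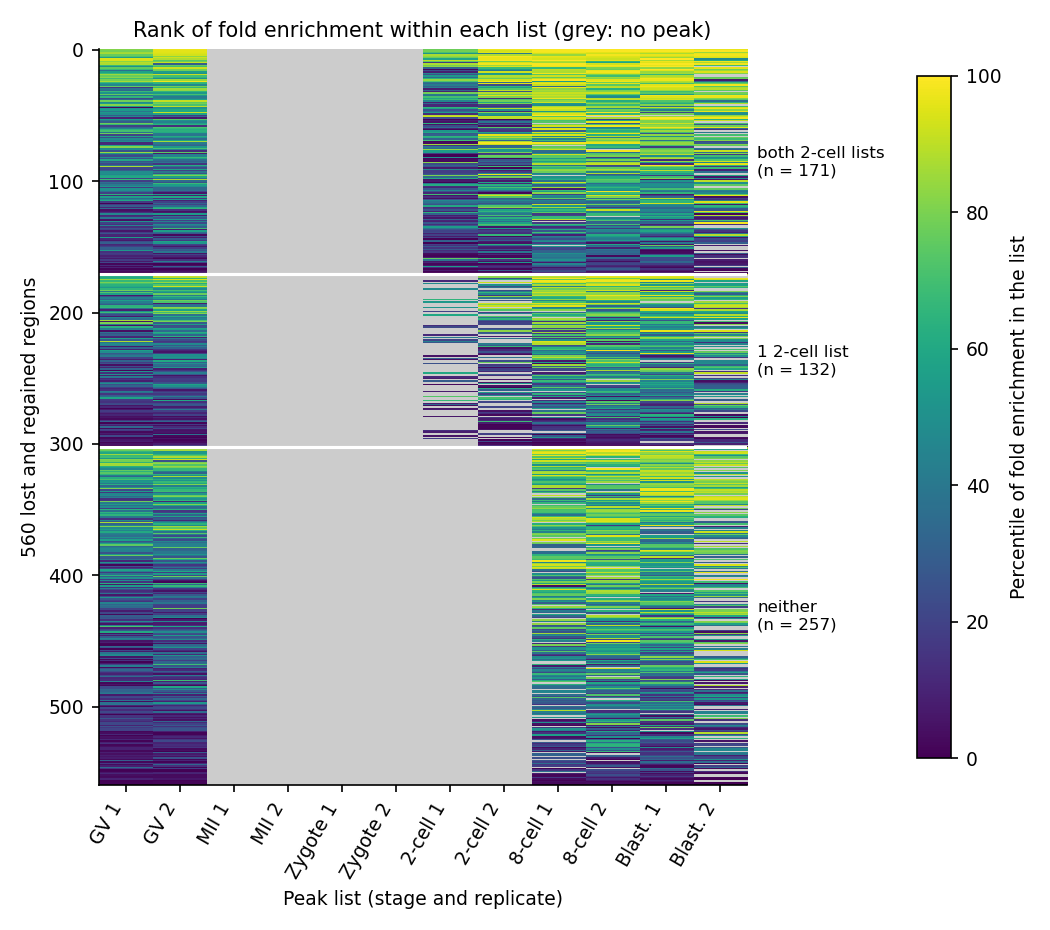
Each row is 1 of the 560 lost and regained regions and each column a peak list. Colour gives the percentile of the region's fold enrichment within that list and grey means no peak. Rows are grouped by 2-cell peaks (171 in both lists, 132 in 1 and 257 in neither) and sorted by mean percentile over the GV, 8-cell and blastocyst lists. The empty MII and zygote columns are set by the choice of regions.

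The strongest members were in genes of varied function. The highest mean percentile, 95.3, was that of a region at chr2:32761819-32762205 where Tor2a (a torsin ATPase) and Ttc16 overlap, so the gene is uncertain. Its fold was 7.72 and 12.6 in GV oocytes, 8.77 and 18.2 in 2-cell embryos, 20.3 and 22.97 in 8-cell embryos, and 17.6 and 17.1 in blastocysts. Jtb followed with 7.30 and 11.5 in GV oocytes and 9.08 and 13.6 in 2-cell embryos. It had 19.7 and 22.2 in 8-cell embryos and 22.5 and 26.3 in blastocysts. By percentile within each list, Jtb ranked at 79.1 and 96.0 in GV oocytes and at 98.7 to 99.5 in all 4 later lists. The region of Tor2a and Ttc16 ranked at 81.6 and 97.2 in GV oocytes and at 96.7 to 99.5 later, so its GV and later ranks overlapped. Mcl1, an anti-apoptotic member of the Bcl-2 family needed by the early embryo, had a fold of 8.37 and 11.2 in GV oocytes. It had 7.91 and 14.9 in 2-cell embryos, 17.3 and 13.5 in 8-cell embryos, and 14.3 and 10.6 in blastocysts. Its percentiles overlapped between stages, with 85.6 and 95.5 in GV oocytes, 97.9 and 96.1 in 8-cell embryos, and 94.9 and 84.7 in blastocysts. Pdgfa, a ligand of the platelet-derived growth factor receptors, had 7.44 and 7.18 in GV oocytes, no 2-cell peak, 15.5 and 29.1 in 8-cell embryos, and 23.1 and 11.3 in blastocysts. Klf2, a Krüppel-like factor of the pluripotency network, had 6.51 and 7.43 in GV oocytes, 10.4 and 21.5 in 2-cell embryos, 14.7 and 12.9 in 8-cell embryos, and 13.1 and 16.3 in blastocysts. Its percentile was 72.4 and 82.9 in GV oocytes and 83.9 to 98.7 in the 6 lists from the 2-cell stage on, which did not overlap with GV.

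Among the other members of the leading 16, Prpf4b (a kinase of the spliceosome), Vkorc1l1 (a vitamin K epoxide reductase), Larp1 (a translational regulator of ribosomal protein mRNAs), Irf2bp2 (a transcriptional corepressor), Rlf (a zinc finger protein), Ercc4 (a DNA repair endonuclease subunit) and Exosc6 had peaks in both 2-cell lists. Phlda1, Rxra (the retinoid X receptor alpha) and Hars (histidyl-tRNA synthetase) had a 2-cell peak in 1 list. Irf2bp2 and Exosc6 were the 2 of the 16 with a higher mean percentile in GV oocytes than later (91.0 against 83.3 in Irf2bp2, and 90.6 against 81.7 in Exosc6).

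Across all members the GV peaks ranked low in their lists and the later ones near the middle. The median fold was 3.71 and 3.79 in the GV lists, at the 29.2 and 34.4 percentile. It was 4.63 and 4.99 in the 2-cell lists (209 and 265 members with a peak, at the 25.6 and 35.6 percentile). In the 8-cell lists it was 6.42 and 6.32 (53.5 and 59.3 percentile) and in the blastocyst lists 6.27 and 6.78 (53.9 and 49.8). Both members of each later pair thus ranked above both GV and both 2-cell lists. Within single regions, 106 of 560 (18.9%) had a higher mean percentile in GV oocytes than later, and the median difference, GV minus later, was -16.9 percentile points. For comparison, 1197 genic regions met the same GV and later criteria but kept a peak in all 4 MII and zygote lists. Their median GV fold was 5.70 and 5.81, at the 63.2 and 68.3 percentile. The 731 regions lost and not regained had a median GV fold of 4.09 and 3.87, at the 36.9 and 35.6 percentile. Regions with peaks in 0, 1, 2, 3 and 4 of the MII and zygote lists had median GV percentiles of 31.6, 41.4, 45.3, 49.3 and 65.6, so the members stand at the low end of this series. In the later lists the same groups had 54.3, 60.1, 57.9, 62.2 and 66.7, so the members were lowest there too. A −log10 q-value under 5 was found in 6.07% and 3.21% of the GV peaks of members. It was found in 0.334% and 0.0835% for regions kept throughout and in 9.85% and 7.25% for those lost and not regained. The median −log10 q-value in GV oocytes was 23.2 and 31.0 for members, against 118 and 160 for regions kept throughout. At least 50 in both GV lists was reached by 108 members (19.3%). The part of peak strength in the absence from MII and zygote lists was not tested.

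The 2-cell stage, which the choice did not use, split the members. A peak was present in both 2-cell lists at 171 regions (30.5%), in 1 at 132 (23.6%) and in neither at 257 (45.9%). Over all genic regions 15.0% had a peak in both lists and 34.5% in at least 1, against 54.1% of the members with at least 1. Replicate 2 marked 265 members (47.3%) and replicate 1 marked 209 (37.3%), and either list alone would therefore give a higher share than both together. Regions kept throughout had 2-cell peaks in both lists in 69.1% of cases, those lost and not regained in 0.684%, and those with at least 3 later lists but no GV, MII or zygote peak in 23.5% (390 of 1663). That last group differs from the members only in the GV lists. Members with all 4 later lists had both 2-cell peaks in 138 of 358 cases and those with 3 later lists in 33 of 202.

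**Figure D2:**
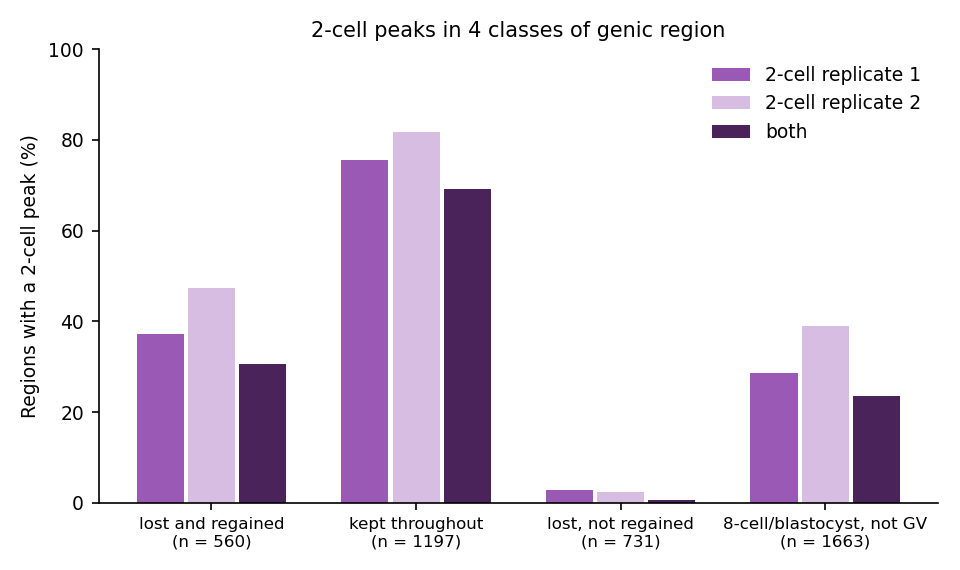
Bars give the share (%) of genic regions with a peak in 2-cell replicate 1, in replicate 2 and in both, for lost and regained regions and 3 other classes that share part of their pattern. The members lie at 37.3%, 47.3% and 30.5%, between the regions kept throughout and those lost and not regained in all 3 measures.

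Members with peaks in both 2-cell lists had stronger peaks elsewhere too. Their median percentile was 42.4 in GV oocytes and 62.3 in the later lists, against 27.2 and 52.6 for members with no 2-cell peak, and 80.7% against 52.1% had peaks in all 4 later lists. Their merged regions were also wider (median 610 bp against 505 bp), but each list that adds an interval can widen a merged region. Their genes were shorter (median 23067 bp against 33849 bp). The leading members with no 2-cell peak were Pdgfa, Sqle (squalene epoxidase, of cholesterol synthesis), Cnot2 (a subunit of the CCR4-NOT deadenylase complex), Kpna3 (an importin alpha) and Tet2 (a dioxygenase that oxidises 5-methylcytosine). A different member in Cnot2 had a peak in 2-cell replicate 1, with a fold of 2.87. Tet2 had a fold of 5.44 and 4.79 in GV oocytes, 14.7 and 10.4 in 8-cell embryos, and 9.96 and 13.7 in blastocysts. Kpna3 had 5.91 and 4.68 in GV oocytes, 12.1 and 18.6 in 8-cell embryos, and 13.8 and 12.4 in blastocysts. By percentile, Tet2 ranked at 59.8 and 53.3 in GV oocytes and at 83.8 to 96.2 later, and Kpna3 at 66.1 and 51.7 in GV oocytes and at 90.5 to 98.9 later, with no overlap in either gene. The leading members with 1 2-cell peak, after Phlda1, Rxra and Hars, were Rfxap (a subunit of a factor of MHC class II promoters) and Crkl (a signalling adaptor). A different member in Crkl had peaks in both 2-cell lists.

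GV and later peaks of a member lay close together, which the choice of merged, overlapping intervals largely fixes, so the distances below are a description. In all 560 regions GV intervals shared bases with 8-cell or blastocyst intervals, and in the median region 100% of the GV bases and 77.2% of the later bases were shared. The distance between the summits of GV replicate 1 and those of 8-cell embryos had a median of 22 and 21 bp, and of blastocysts 22 and 36 bp. Between replicates of a stage it was 13 bp in GV oocytes, 17 bp in 8-cell embryos and 27.5 bp in blastocysts. Summits of GV replicate 1 and 8-cell replicate 1 lay within 100 bp of each other in 80.5% of 518 regions, and those of the 2 8-cell lists in 83.7% of 496. The 2-cell summits were as near, at a median of 30 and 23 bp from those of GV replicate 1 where there was a 2-cell peak. In the regions kept throughout, the medians from GV replicate 1 to the 4 later lists were 14 to 30 bp.

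**Figure D3:**
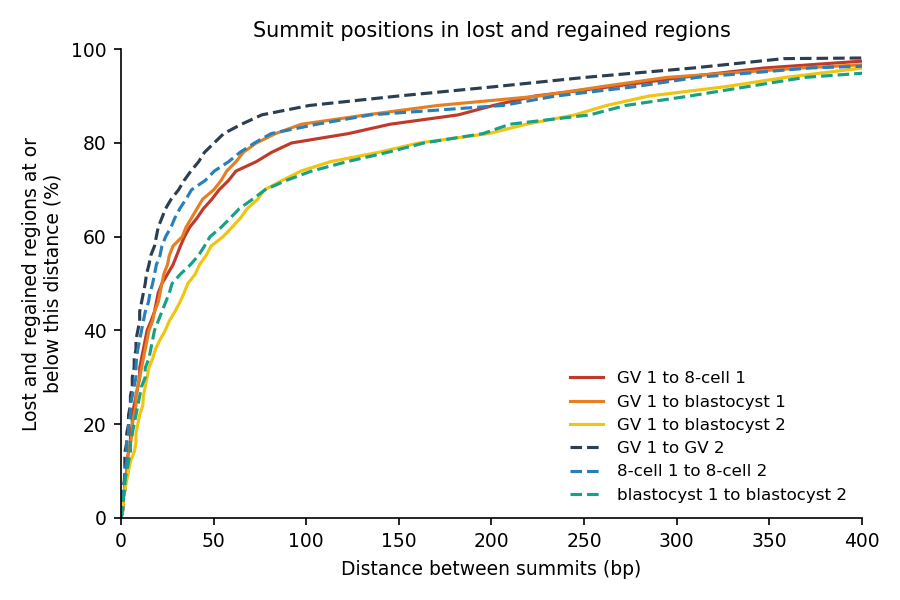
The plot gives, for lost and regained regions, the share (%) whose summits lie within a given distance (bp). Solid lines compare GV replicate 1 with later lists and dashed lines compare replicates of a stage. The curves of GV replicate 1 with 8-cell replicate 1 and blastocyst replicate 1 run close to that between 8-cell replicates, and both curves with blastocyst replicate 2 lie lowest.

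Most members lay toward the 3′ end of their gene. Of the 530 regions in a single gene, 429 had a strand in the RefSeq table used. Their median position was 92.2% of the way from the gene's start to its end, and 213 (49.7%) had their midpoint within 2000 bp of the annotated end and 21 (4.90%) within 2000 bp of the start. In genes over 10000 bp, 151 of 352 (42.9%) were within 2000 bp of the 3′ end and 1 within 2000 bp of the start, where uniform placement along the same genes would put 6.50% at each end. The same share at the 3′ end was 25.3% for regions kept throughout, 35.1% for those lost and not regained, 37.5% for later regions without a GV peak, and 23.1% over all genic regions in genes of this length. Uniform placement would put 5.85%, 4.35%, 6.58% and 5.38% of these sets there, in the same order. A window of 2000 bp is a smaller part of a longer gene, so the shares do not compare directly. Merged regions were 200 to 2198 bp wide, with a median of 548 bp, against 768 bp for those kept throughout. The latter join intervals of more lists, which can widen them. Single GV peaks had a median width of 307 and 323.5 bp in members, against 572 and 591 bp in regions kept throughout. The gene body includes introns and all isoforms, and exons were not annotated in the table, so a 3′ region cannot be assigned to a UTR here.

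**Figure D4:**
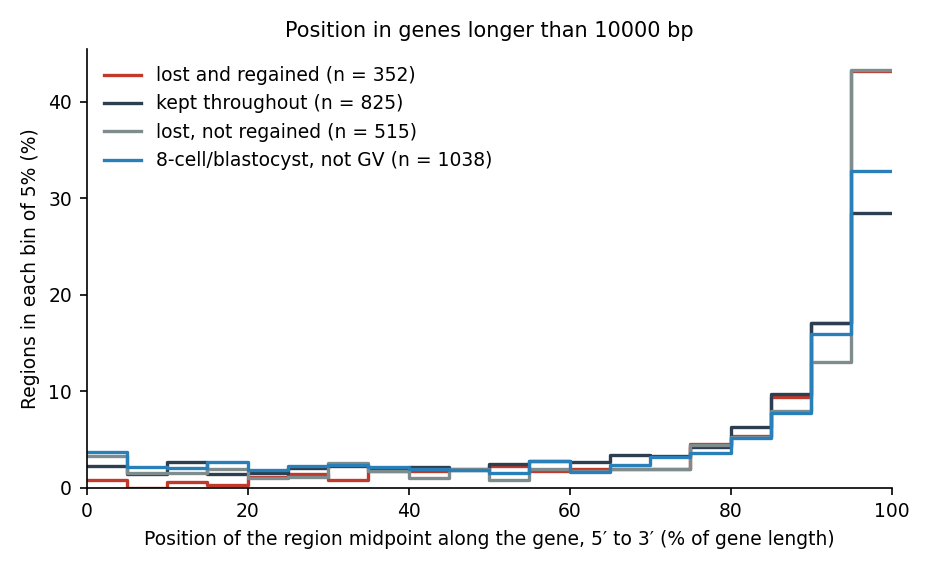
The horizontal axis is the position of the region's midpoint from the 5′ to the 3′ end (% of gene length) in genes longer than 10000 bp, and the vertical axis the share of regions (%) in each bin of 5%. Lost and regained regions (n = 352), regions kept throughout (n = 825), regions lost and not regained (n = 515) and later regions without a GV peak (n = 1038) all have their highest share in the last bin. That share is 43.2% for lost and regained regions, 28.5% for those kept throughout, 43.3% for those lost and not regained, and 32.9% for later regions without a GV peak.

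Peaks elsewhere in the same gene were not used by the choice. Of the 560 genes, 265 (47.3%) had such a peak outside the lost and regained region in at least 1 MII or zygote list, and 114 (20.4%) in all 4. The other 295 (52.7%) had no peak of theirs in any of the 4 lists. The share with another peak was 60.1% for genes of regions kept throughout and 62.3% for those of regions lost and not regained. It was 27.9% for genes of later regions without a GV peak. Median gene length differed (27333 bp for members, then 35544, 60981 and 25694 bp). No share was computed over all genes with a region in both GV lists, so 47.3% has no general background here. In genes of 10 to 50 kb the share with another peak was 43.3%, against 58.1% for genes of regions kept throughout, 52.0% for those of regions lost and not regained, and 23.5% for those of later regions without a GV peak. Per list, 35.2% and 40.9% of the 560 genes had another peak in GV oocytes, 41.6% and 34.1% in MII oocytes, 24.8% and 34.6% in zygotes, 35.0% and 39.3% in 2-cell embryos, 47.5% and 52.0% in 8-cell embryos, and 47.7% and 42.1% in blastocysts. The GV and MII lists overlapped in this measure. Where a gene had an MII or zygote peak, the nearest one lay a median of 4945 bp from the region. It was within 500 bp in 53 regions (9.46%) and within 2000 bp in 111 (19.8%).

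**Figure D5:**
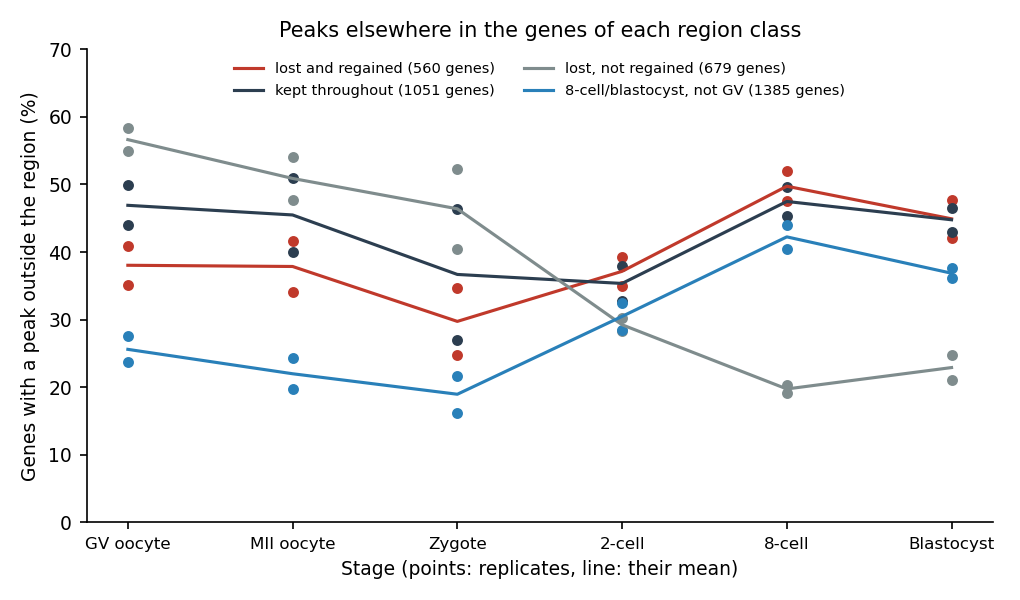
Points give, for each peak list, the share (%) of genes with a peak outside the region that put the gene in its class, and lines join the means of the 2 replicates. Genes of lost and regained regions (n = 560) are at 34.1% and 41.6% in MII oocytes and 47.5% and 52.0% in 8-cell embryos. Genes of regions lost and not regained (n = 679) are highest in GV oocytes and near 20% in 8-cell embryos.

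Genes of the m6A machinery were among the members. Over all genes with a genic region, 5.69% held a lost and regained region, and over the 4478 with a region in both GV lists 12.5% did. The rule needs both GV lists, so the 12.5% is the background for shares over such genes. All gene lists below were assembled with earlier results of these data known, and none was tested. Of 7 writer complex genes with a region, 3 held a member: Rbm15b, Zc3h13 and Wtap. Of the 5 with a region in both GV lists this was 60%. A region kept throughout was held by 5 of the 7, against 1051 of all 9838 genes with a genic region. The writer genes were thus not marked by loss and regain alone. The Rbm15b region had a fold of 6.95 and 6.82 in GV oocytes, 4.82 and 7.19 in 2-cell embryos, 5.25 and 10.4 in 8-cell embryos, and 17.7 and 8.80 in blastocysts. That of Zc3h13 had 2.15 and 3.25 in GV oocytes, 3.75 in 2-cell replicate 1 only, 9.97 and 11.67 in 8-cell embryos, and 6.54 in blastocyst replicate 1 only. All 3 genes had another peak in each MII and zygote list, at 261 bp in Rbm15b, 1291 bp in Wtap and 11407 bp in Zc3h13, so these genes kept a peak elsewhere. Of 12 readers and erasers with a region, 2 held a member, the YTH readers Ythdf1 and Ythdf2, and 4 held a region kept throughout. Over those with a region in both GV lists, 33.3% held a member. Ythdf2, which speeds RNA decay and is needed in the mouse oocyte, had a fold of 5.96 and 5.46 in GV oocytes, 3.07 and 4.61 in 2-cell embryos, 8.96 and 7.34 in 8-cell embryos, and 9.29 and 5.14 in blastocysts, and another peak in all 4 MII and zygote lists. Ythdf1 had 2.41 and 2.95 in GV oocytes, 4.80 and 4.51 in 2-cell embryos, 5.80 and 5.95 in 8-cell embryos, and 5.35 and 4.66 in blastocysts, and no other peak in MII oocytes or zygotes. Its percentile was 6.99 and 17.7 in GV oocytes and 19.3 to 54.4 in the 6 lists from the 2-cell stage on, highest in 8-cell replicate 2.

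Factors of translation and of mRNA decay also held members. In translation initiation and control 5 of 35 genes did (14.3%). Larp1 had a fold of 5.24 and 9.95 in GV oocytes and 8.91 and 16.8 in 2-cell embryos, from a region of 1900 bp. It had 13.7 and 12.2 in 8-cell embryos and 10.4 and 14.4 in blastocysts. G3bp2, a stress granule protein, had 3.312 and 3.251 in GV oocytes, 3.242 and 1.896 in 2-cell embryos, 7.32 and 7.84 in 8-cell embryos, and 7.69 and 8.02 in blastocysts. Its percentile was 21.9 and 23.3 in GV oocytes, 7.11 and 0.450 in 2-cell embryos, and 66.2 to 75.5 in the later lists, so the 3 sets did not overlap. Eif5, the initiation factor that activates GTP hydrolysis on the 43S complex, had 2.72 and 1.69 in GV oocytes, no 2-cell peak, and 3.72 to 6.51 in the later lists. Larp4b had peaks of 3.06 and 2.13 in GV oocytes and lacked one in blastocyst replicate 2. In deadenylation and decay 4 of 33 genes held a member (12.1%). Ago2, the slicing Argonaute of RNA interference, had 6.04 and 6.55 in GV oocytes, 9.18 and 10.03 in 2-cell embryos, 19.7 and 16.1 in 8-cell embryos, and 15.5 and 8.23 in blastocysts. By percentile its GV ranks (67.4 and 75.7) lay below those in 2-cell and 8-cell embryos (79.5 to 98.8) and overlapped with those in blastocysts (96.3 and 69.4). Tob1, an adaptor of the CCR4-NOT complex, had 6.30 and 5.50 in GV oocytes, 6.18 and 3.69 in 2-cell embryos, 5.03 and 6.56 in 8-cell embryos, and 10.2 in blastocyst replicate 1 only. Its percentile was 70.3 and 63.9 in GV oocytes and 30.5 and 62.8 in 8-cell embryos. Pan3, of the PAN2-PAN3 deadenylase, had 3.32 and 4.07 in GV oocytes and 5.12 to 10.5 in the later lists. Of 13 nonsense-mediated decay genes with a region, 0 held a member, and of 29 splicing factors 2 did, Hnrnpa0 and Son. Over genes with a region in both GV lists the share was 41.7% for translation and 22.2% for deadenylation and decay. By the same measure it was 15.4% for splicing factors.

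In the stress responses, 3 of 19 genes of the unfolded protein and integrated stress response held a member (15.8%), all of them acting on the phosphorylation of eIF2. Ppp1r15a, the stress-induced subunit that directs a phosphatase to eIF2, had a fold of 4.61 and 3.73 in GV oocytes, 14.8 and 12.1 in 2-cell embryos, 8.22 in 8-cell replicate 1 only, and 10.2 and 12.8 in blastocysts. By percentile it ranked at 46.2 and 33.0 in GV oocytes and at 93.0 and 90.8 in 2-cell embryos, and at 74.2 to 91.4 in the later lists with a peak. Ppp1r15b, the constitutive counterpart, had 5.07 and 6.33 in GV oocytes, 2.21 and 1.58 in 2-cell embryos, 10.8 and 3.75 in 8-cell embryos, and 14.5 and 7.60 in blastocysts. Its 2-cell peaks were among the weakest of their lists, at the 0.928 and 0.0628 percentile, against 53.9 and 73.7 in GV oocytes. Eif2ak1, a kinase of eIF2, had 5.11 and 5.69 in GV oocytes, no 2-cell peak, 11.4 in 8-cell replicate 1 only, and 10.8 and 9.64 in blastocysts. Among heat shock factors and chaperones 2 of 19 genes held a member, the J-domain proteins Dnajb1 and Dnajb6. Over genes with a region in both GV lists the share was 28.6% in that list and 30% in the stress response list.

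Among ubiquitin enzymes, of 24 E1 and E2 genes with a region 6 held a member (25%). Of 41 F-box and cullin ligase subunits 8 did (19.5%), and of 34 ubiquitin-specific proteases 4 (11.8%). Over genes with a region in both GV lists these shares were 42.9%, 33.3% and 17.4%. Ube2d1 had a fold of 7.54 and 5.16 in GV oocytes, no 2-cell peak, 4.20 and 7.78 in 8-cell embryos, and 17.5 and 8.10 in blastocysts. Ube2g1, an E2 of endoplasmic reticulum-associated degradation, had 4.67 and 6.62 in GV oocytes, no 2-cell peak, 11.5 and 3.69 in 8-cell embryos, and 10.7 in blastocyst replicate 1 only. By percentile the GV and 8-cell ranks overlapped in both genes, with 80.6 and 58.9 in GV oocytes and 17.8 and 75.3 in 8-cell embryos for Ube2d1, and 47.9 and 76.2 in GV oocytes and 90.7 and 17.7 in 8-cell embryos for Ube2g1. Fbxo11, a substrate receptor of an SCF ligase, had 5.95 and 6.07 in GV oocytes, 3.60 in 2-cell replicate 1 only, 17.5 and 15.5 in 8-cell embryos, and 17.2 and 7.30 in blastocysts. Its percentile was 66.4 and 71.0 in GV oocytes, 98.0 and 97.8 in 8-cell embryos, and 97.5 and 57.9 in blastocysts, so blastocyst replicate 2 ranked below both GV lists. Fbxo5 (EMI1, an inhibitor of the anaphase-promoting complex) had 5.79 and 4.18 in GV oocytes, no 2-cell peak, 10.01 and 7.02 in 8-cell embryos, and 12.1 in blastocyst replicate 1 only. Fbxo30 and Fbxw11 had no 2-cell peak, and neither did the protease genes Usp42 and Usp54, while Usp8 had a peak in both 2-cell lists and Usp12 in 1.

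Chromatin and signalling genes followed. Among histone methyltransferases and demethylases 7 of 41 genes held a member (17.1%), 10 a region kept throughout and 12 a later region without a GV peak. Over all 9838 genes with a genic region, 560 held a member, 1051 a region kept throughout and 1385 a later region without a GV peak. The higher share in this list was thus not particular to loss and regain. Among chromatin remodellers and histone acetylation factors 2 of 38 held a member (5.26%), close to the 5.69% of all genes. Over genes with a region in both GV lists these member shares were 29.2% and 11.8%. Setd1b, a methyltransferase of histone H3 lysine 4, had a fold of 1.87 and 2.86 in GV oocytes, no 2-cell peak, 12.5 and 6.38 in 8-cell embryos, and 6.17 and 14.6 in blastocysts. Setdb1, a methyltransferase of histone H3 lysine 9 that silences retrotransposons, had 2.66 and 2.40 in GV oocytes, 5.53 in 2-cell replicate 1 only, 8.28 and 6.42 in 8-cell embryos, and 10.3 in blastocyst replicate 1 only. By percentile the later ranks did not overlap with those in GV oocytes, with 1.69 and 16.0 in GV oocytes and 51.9 to 94.3 later for Setd1b, and 10.5 and 8.74 in GV oocytes and 61.6 to 85.2 later for Setdb1. Nsd1 (H3 lysine 36) had 7.17 and 2.53 in GV oocytes, at the 78.1 and 10.9 percentile, so its GV replicates lay far apart. Arid1a and Arid1b, subunits of BAF remodelling complexes, had no 2-cell peak and another peak in all 4 MII and zygote lists. In FGF, ERK and TGF-beta signalling 5 of 35 genes held a member (14.3%), named here by Ski and Smad2, which act below the TGF-beta receptors, Spred1 (an inhibitor of RAS signalling) and Bmpr1a (a receptor of bone morphogenetic proteins). In the WNT pathway 2 of 21 did, Ctnnb1 (beta-catenin) with 4.19 and 3.51 in GV oocytes and 2.96 to 5.87 in the later lists, and Apc, its negative regulator, with an MII or zygote peak 103 bp away. The Hippo list had 1 of 20 (Sav1), and cyclins and cyclin-dependent kinases 2 of 35 (Ccnl1 and Cdk12). Immediate early and MYC family genes had 2 of 21 (Klf2 and Klf10), and pluripotency genes 2 of 18 (Klf2 and Sall4). Over genes with a region in both GV lists the share was 25% for FGF, ERK and TGF-beta signalling and 16.7% for WNT. It was 11.1% for Hippo, 15.4% for cyclins and their kinases, 20% for immediate early and MYC genes and 28.6% for pluripotency.

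In 5 further lists no gene held a member: 0 of 16 oocyte genes with a region, 0 of 19 genes of trophectoderm and primitive endoderm, 0 of 27 autophagy genes, 0 of 22 cytosolic ribosomal protein genes and 0 of 6 cumulus and granulosa cell markers. Only 2 of the ribosomal protein genes and 4 of the trophectoderm and primitive endoderm genes had a region in both GV lists, so few of them could have met the rule. Of the 16 oocyte genes, 10 had a region in both GV lists and 4 of them one that was lost and not regained. Over all genes, 4478 had a region in both GV lists and 679 of them one that was lost and not regained.

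Some genes held several members. There were 28 with at least 2 members. Of the 2 genes with 3, 1 is a predicted gene model and the other is Zfp217, a zinc finger corepressor, whose 3 members had their midpoints within its last 11052 bp and each with peaks in both 2-cell lists and all 4 later lists. Their GV folds were 4.46 and 5.65, 3.82 and 5.74, and 4.13 and 7.74, from the most distal to the most proximal. Zfp217 had no other peak in MII oocytes or zygotes. Regions of 1 gene share its RNA and are not independent. In Ranbp2 (a nucleoporin), Cnot2, Litaf, Cbfa2t2 (a transcriptional corepressor), Chst12, Galnt2, Endod1, Nck1 (an adaptor protein) and Uhrf1bp1l too, both members were lost with no other MII or zygote peak in the gene. In Ypel2, Rreb1, Casp8ap2, Ski and Pcf11 another peak was present in all 4 MII and zygote lists, the nearest 284 bp from a member in Ypel2, 424 bp in Rreb1, 607 bp in Casp8ap2, 380 bp in Ski and 699 bp in Pcf11. Of the Ski regions, 1 lay near the 5′ end, at 1.12% of the gene's length, and the other at 97.1%.

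The balance between GV and later peaks varied widely. The members with the largest excess of GV over later percentile were Gtpbp10 (41.6 points), Ctdnep1 (40.3, a phosphatase of the nuclear envelope), Lrpap1 (38.2, a chaperone of lipoprotein receptors) and Fam207a (37.8). Lrpap1 had a fold of 7.41 and 7.89 in GV oocytes, 7.75 and 6.23 in 8-cell embryos, and 5.46 and 3.82 in blastocysts. Its percentile was 79.7 and 85.7 in GV oocytes, 69.9 and 58.3 in 8-cell embryos, and 41.1 and 8.74 in blastocysts. At the other end were Srp54c (-86.5 points), Gapvd1 (-71.9, a guanine nucleotide exchange factor of endocytosis), Pramel48 (-71.0) and Setd1b (-66.3). Pramel48 had 3.65 and 2.99 in GV oocytes, 12.2 and 5.60 in 2-cell embryos, 38.5 and 39.0 in 8-cell embryos, and 10.2 in blastocyst replicate 2 only. Srp54c and Pramel48 have close copies in the mouse genome, so reads may be shared between copies and the member is uncertain. The widest members were in Smcr8 (2198 bp, a partner of C9orf72 in autophagy), Zfp51 (2128 bp, a zinc finger gene with close relatives) and Rlf (2079 bp), all with peaks in both 2-cell and all 4 later lists.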

How the data were processed

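Immunoprecipitated RNA of 12 libraries (6 stages, 2 replicates) was analysed from the authors' deposited peak lists; 12 inputs were not analysed here. Per the submitters' processing notes, mm10, cutadapt 1.8.1, HISAT2 2.1.0, SAMtools 1.9, bedtools 2.28.0 and MACS2 2.1.2 were used, with settings that the sources used here do not state. Each library was called separately against its matching input, as the peak names in the deposited lists show. Per summit the authors deposited a score, which follows the q-value (its −log10 times 10, without decimals), the fold enrichment (a ratio), a −log10 p-value and a −log10 q-value, none under 1.30. No counts are given, so depth is unknown.

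The 143579 summits were collapsed to 113755 peaks on chromosomes 1 to 19, X and Y, 1 per interval with its best q-value; 13 mitochondrial summits were left out. Intervals overlapping by at least 1 bp were merged with Python 3.11.15 and pandas 2.3.3. Protein-coding genes (21883) came from RefSeq (GRCm38.p6, which has the chromosome sequences of mm10), as did strands, from the promoter windows. The rule recovered all planted regions when tested on simulated data. Members and gene lists were chosen with earlier results of these data known. Named genes are the 16 strongest by mean percentile, 5 per 2-cell class, genes with 2 or more members, up to 4 per gene list, 4 at each end of the GV minus later percentile and the 3 widest; gene models without a proper symbol were skipped. Some genes this rule names are not reported here. Alternatives were the merging distance, the q-value threshold, equal list lengths, gene assignment, the number of later lists, the unit, the width and leaving out each library.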

Additional observations from a re-analysis of the deposited data

How the results depend on the processing

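The number of lost and regained regions (560) stayed within 1.5 times of itself in 7 of 9 alternatives other than single libraries left out. It was 347 with the same number of peaks (6914) per list and 358 with all 4 later lists required. The share with peaks in both 2-cell lists (30.5%, 95% exact binomial interval 26.7% to 34.5%, counting error only) was 38.5% with all 4 later lists and 24.9% with at least 2. The share of genes with another MII or zygote peak (47.3%, interval 43.1% to 51.6%) was 40.8% with equal lists and 53.9% with the intersection of GV peaks as the unit. In these settings the cause of the shift was not tested, except that requiring more lists keeps fewer regions by construction. Leaving out 1 library gave 368 (without blastocyst replicate 1) to 760 regions (without GV oocyte replicate 1), 28.2% to 47.2% with all remaining 2-cell lists marked, and 42.7% to 49.0% of genes with another peak. The 2-cell share was 47.2% without 2-cell replicate 1 and 37.2% without replicate 2, where 1 list suffices. No paired analysis was possible because no result comes from a test and the lists hold no values at regions without a peak. Unknown depth limits every absence.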

Other observations

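Another 15 merged regions met the same pattern of lists with their midpoint outside protein-coding genes. The genic share of regions with the pattern was thus 97.4% (560 of 575), and that of all merged regions was 71.7% (22498 of 31376). No test was run on this difference.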
